A study of Mus musculus with 6 samples.

Results

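C1q-expressing tumour macrophages were the barcodes of mouse breast tumours that carried at least 3 unique molecular identifiers (UMIs, one per captured transcript) of C1qa, C1qb and C1qc summed. A barcode also had to hold 200 or more detected genes, at most 1 UMI of the epithelial genes Krt8, Krt18 and Epcam, none of the lymphocyte genes Cd79a, Ms4a1, Cd3e and Cd3g, and at most 1 of the collagen genes Col1a1 and Col3a1. These conditions picked 262 of the 6730 barcodes with 200 or more genes, or 3.89%, and 30000 barcodes were listed in all. They lay in 5 of the 6 libraries, and 77.5% of them came from FVIO-MHT replicate 3 and PBS replicate 2. The tumours grew in Balb/c mice from 4T1 cells, a mouse mammary tumour line. The 3 FVIO-MHT libraries came from tumours injected with ferrimagnetic vortex iron oxide nanorings at 0.1 mg per cm3 of tumour and heated in an alternating magnetic field of 365 kHz for 10 min, and the 3 PBS libraries from tumours given PBS. All were dissociated, depleted of red cells and profiled by Drop-seq, a droplet method that counts transcripts per cell barcode, 24 h after treatment. The labels give neither age nor sex, do not say whether the PBS tumours were placed in the field, and do not say whether replicates were separate mice, so p-values measure only the spread between these libraries.

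C1q is the recognition molecule of the classical complement pathway, built from chains A, B and C, and in tissues macrophages make most of it. In tumours, macrophages with C1q usually also carry apolipoprotein E, lysosomal proteases, MHC class II and scavenger receptors, and they take up dead cells. Mild heating of a tumour is a known inducer of heat shock genes, and arginase 1 and the elastase Mmp12 are products of macrophages found in hypoxic or wound-like tissue.

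The C1q genes that chose the barcodes lie side by side on the reverse strand of chromosome 4 (mm10): C1qb at 136880129 to 136886187, C1qc at 136889804 to 136893065 and C1qa at 136895917 to 136898803. The 250 bases before the RefSeq start of C1qb (GRCm38.p6, chr4:136886201-136886450, reverse strand) and of C1qc (chr4:136892915-136893164, reverse strand) are shown because these genes define the population. Capitals mark the core of the motif of PU.1, the myeloid transcription factor, searched as GAGGAA on both strands.
C1qb: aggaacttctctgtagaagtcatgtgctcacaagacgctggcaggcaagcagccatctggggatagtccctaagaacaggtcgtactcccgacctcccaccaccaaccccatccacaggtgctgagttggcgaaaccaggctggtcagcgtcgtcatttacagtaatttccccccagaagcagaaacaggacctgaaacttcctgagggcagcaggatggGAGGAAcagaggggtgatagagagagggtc
C1qc: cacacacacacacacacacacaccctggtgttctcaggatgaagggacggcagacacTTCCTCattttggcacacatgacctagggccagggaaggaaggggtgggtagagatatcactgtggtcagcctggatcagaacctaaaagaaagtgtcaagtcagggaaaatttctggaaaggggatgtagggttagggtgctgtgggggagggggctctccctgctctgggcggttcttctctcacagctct
Each window held 1 match, that of C1qb on the forward reading and that of C1qc on the opposite strand. The same 6 letters occur in 23.3% of 32851 promoter windows of this length, so a match is common, and it is a description of the sequence and not evidence of binding.

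The C1q sum was low in most of these barcodes. It was 3 to 5 UMIs in 147, 6 to 9 in 83 and 10 or more in 32, with a median of 5 and a maximum of 50 in a barcode of FVIO-MHT replicate 2 that held 4387 UMIs. C1qa was detected in 241 barcodes, C1qc in 215 and C1qb in 160, and all 3 chains in 120. At the edge of the rule, the 63 barcodes with a C1q sum of exactly 3 held Apoe at 7389 CPM, counts scaled to a total of 1000000 UMIs, and the 76 with a sum of 2 held it at 7895 CPM. Those just outside therefore had the same order of Apoe as those just inside.

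Macrophage markers that the rule did not use were also found in the pooled barcodes. Apoe, the lipid carrier, was detected in 83.6% of the C1q-expressing barcodes and in 10.8% of 1645 keratin barcodes. Keratin barcodes were those with 3 or more UMIs of Krt8, Krt18 and Epcam, and they were deeper (median 1368 against 644.5 UMIs). The Apoe share of C1q-expressing barcodes differed by library. It was 75.0% and 91.6% in FVIO-MHT replicates 2 and 3 and 43.8%, 89.3% and 36.4% in PBS replicates 1 to 3. Ctss, a lysosomal protease of antigen-presenting cells, was detected in 73.7% against 3.59%, and Lyz2, the myeloid lysozyme, in 59.2% against 4.07%. The mannose receptor Mrc1 was detected in 35.9% against 1.09%. Csf1r, the receptor for the macrophage growth factor, was detected in only 16.4% of them, with 51 UMIs in all, but in 0.304% of keratin barcodes. Spp1, osteopontin, was more frequent in the keratin barcodes (77.7%) than in the C1q-expressing ones (53.1%), so it did not mark macrophages here.

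Markers of other cell types were low in summed level, though many were detected. No UMI of any of the 11 T and NK genes in the tables was found, although Cd3e and Cd3g were barred by the rule. Of 14 neutrophil genes 8 were detected, namely S100a8, S100a9, Csf3r, Cxcr2, Mmp9, G0s2, Il1r2 and Hdc. Ly6g, Retnlg, Ngp, Camp, Ltf and Stfa2l1 were at 0. The neutrophil sum was 1681 CPM in FVIO-MHT replicate 2 and 213 to 627 CPM in the other 4 libraries, and all 8 monocyte genes were detected at sums of 384 to 1483 CPM. Of 9 dendritic cell genes 4 were detected, at sums of 0 to 224 CPM, and Flt3, Xcr1, Cd209a, Siglech and Itgae were at 0. Of 14 tumour epithelial genes 12 were detected, at sums of 149 to 656 CPM, and of 10 fibroblast genes 7, at 0 to 486 CPM. The rule capped Krt8, Krt18 and Epcam in the former list and Col1a1 and Col3a1 in the latter, so these sums were partly fixed by it. With the capped genes left out, 9 of 11 epithelial genes were detected at 149 to 494 CPM and 5 of 8 fibroblast genes at 0 to 261 CPM. Of 9 endothelial genes 6 were detected, at 0 to 261 CPM, and of 8 osteoclast genes 6, at 54.9 to 523 CPM. All 8 skin keratinocyte genes were detected, at 0 to 261 CPM. No doublet caller was run.

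The libraries differed in ways that touch what follows. Totals ran from 678337 to 2207534 UMIs, and the C1q-expressing barcodes summed to 18231, 84682 and 14830 UMIs in PBS replicates 1 to 3 and to 26770 and 68596 in FVIO-MHT replicates 2 and 3, so that 1 UMI is worth 11.8 to 67.4 CPM. FVIO-MHT replicate 1 held none of these barcodes, and 264 of its 332 barcodes with 200 or more genes were of a neutrophil type (3 or more UMIs of S100a8 and S100a9). FVIO-MHT replicate 3 was low in B2m throughout, PBS replicates 2 and 3 were high in Hspa1a and Hspa1b throughout, and these values stand beside the genes concerned. PBS replicates 2 and 3 shared 44 barcode sequences, 33 of them with 200 or more genes in both, against 0 to 6 for any other pair. No barcode was C1q-expressing in both, 1 such barcode of PBS replicate 2 was also listed in PBS replicate 3, and 1 of FVIO-MHT replicate 2 was also listed in FVIO-MHT replicate 1.

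The share of C1q-expressing barcodes varied more within the groups than between them. It was 0 of 332 in FVIO-MHT replicate 1, with an exact 95% interval of 0 to 1.10%, then 3.05% (32 of 1049) in replicate 2 and 5.12% (119 of 2325) in replicate 3. In the PBS libraries it was 1.48% (16 of 1080), 5.75% (84 of 1462) and 2.28% (11 of 482). The groups overlapped, with the highest share in a PBS library and the lowest in an FVIO-MHT library. The means were 2.72% ± 2.57 (SD, n = 3) under FVIO-MHT and 3.17% ± 2.27 (SD, n = 3) under PBS, a difference of -0.447 percentage points with a two-sided exact permutation p of 0.9, where 3 libraries against 3 can reach no less than 0.1. The sign turned to +0.915 points without FVIO-MHT replicate 1 and to +0.841 without PBS replicate 2, and thinning every barcode to 300 UMIs gave +0.876 points. A share counts barcodes that reached 3 C1q UMIs, so fewer macrophages and less C1q RNA per macrophage cannot be told apart.

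**Figure D1:**
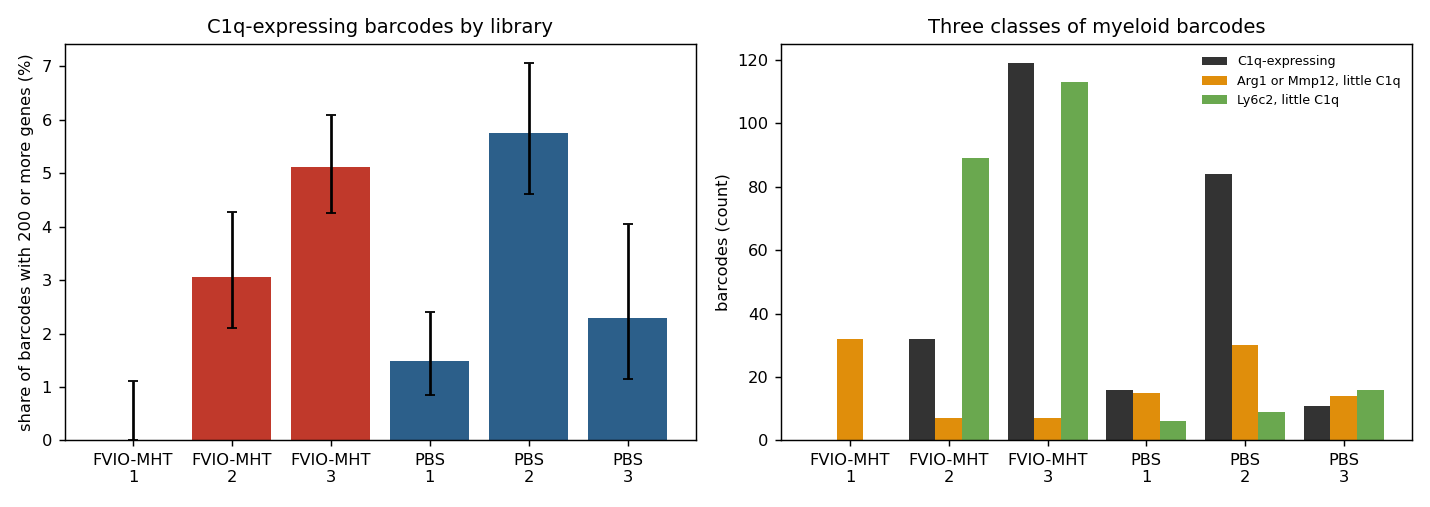
Left, share of C1q-expressing barcodes among barcodes with 200 or more genes in each library (bars, %) with exact binomial 95% intervals, which cover counting error only; red is FVIO-MHT and blue is PBS. Right, number of barcodes in each library that were C1q-expressing, that carried Arg1 or Mmp12 with little C1q, or that carried Ly6c2 with little C1q. FVIO-MHT replicate 1 has 32 of the second class and none of the first.

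FVIO-MHT replicate 1 lacked C1q-expressing barcodes but held barcodes with Arg1 or Mmp12. It held 32 barcodes with 2 or more UMIs of Arg1 and Mmp12 and at most 1 of C1q, and its whole library held 14 C1q UMIs. Counted over both kinds together, C1q-expressing barcodes were 0 of 32 there (exact 95% interval 0 to 10.9%), against 82.1% (32 of 39) and 94.4% (119 of 126) in FVIO-MHT replicates 2 and 3. In PBS replicates 1 to 3 they were 51.6% (16 of 31), 73.7% (84 of 114) and 44.0% (11 of 25). Replicates 2 and 3 of FVIO-MHT lay above all PBS libraries by this measure and replicate 1 lay below them all. Barcodes with the monocyte gene Ly6c2 and little C1q, Arg1 or Mmp12 numbered 0, 89 and 113 in the FVIO-MHT libraries and 6, 9 and 16 in the PBS libraries. Neither they nor the Arg1 and Mmp12 barcodes had a limit on S100a8 and S100a9, so neutrophils were not kept out. In the Ly6c2 barcodes S100a9 was at 7291 and 308 CPM in FVIO-MHT replicates 2 and 3 and 1577, 15697 and 104 CPM in PBS replicates 1 to 3. In the Arg1 and Mmp12 barcodes it was at 3003, 430 and 416 CPM in the FVIO-MHT libraries and at 0 in the PBS libraries. Among the 3 kinds together the C1q-expressing share averaged 24.9% ± 24.9 (SD, n = 3) under FVIO-MHT and 46.1% ± 20.9 (SD, n = 3) under PBS (two-sided exact permutation p = 0.4).

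The C1q-expressing barcodes were set beside those related ones by the levels of named genes. With the classes cut from the same barcodes, these are descriptions with no test. The pooled classes drew unevenly on the libraries, with 32 of the 105 Arg1 and Mmp12 barcodes in FVIO-MHT replicate 1. Class and library are therefore mixed in the pooled values. Gatm, which makes the creatine precursor guanidinoacetate, was at 809 to 1736 CPM in the 5 libraries of C1q-expressing barcodes, at 492 CPM in the Arg1 and Mmp12 barcodes, at 202 in the Ly6c2 barcodes and at 5.73 in the neutrophil barcodes. Of 898 genes at 100 CPM or more in all 5 libraries, 75 were higher in each of them than in any of the other 3 classes pooled. The 10 that led were Nol7, Gatm, Ezh2, Incenp, Ola1, Coa5, Supt5, Adam9, Hnrnpf and Ndufa5. Their ratios of the lowest library to the highest class were small, from 1.38 for Ndufa5 to 1.69 for Nol7. Lgmn, the lysosomal asparagine endopeptidase, was at 2182 CPM over all C1q-expressing barcodes against 1069, 878 and 123 in the Arg1 and Mmp12, Ly6c2 and neutrophil barcodes. Mrc1 was at 863 CPM against 619, 101 and 43.0. Cd74, the MHC class II chaperone, was at 7372 CPM against 6568, 2898 and 324, so it did not set them far apart from the Arg1 and Mmp12 barcodes. In PBS replicates 1 and 3 Cd74 was lower in the C1q-expressing barcodes (6637 and 11059 against 7059 and 12339 CPM). In FVIO-MHT replicates 2 and 3 and PBS replicate 2 it was higher in them. Pooled Pf4 was lower in the C1q-expressing barcodes, with 680.4 CPM against 1899 in the Arg1 and Mmp12 barcodes.

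The treatment comparison asks how macrophages of heated tumours differ from those given PBS. Counts were summed over the C1q-expressing barcodes of each library and compared with edgeR's quasi-likelihood test and Benjamini-Hochberg adjustment over all genes tested. Only libraries with 20 or more such barcodes entered, which left FVIO-MHT replicates 2 and 3 against PBS replicate 2, so PBS replicate 2 is assumed to vary like the FVIO-MHT pair. A second fit took all 5 libraries with 10 or more, 2 against 3; it was chosen after the counts per library were seen and is given beside the first. The first fit called 5 of 2066 genes (0.242%), of which 2 were higher (0.0968%) and 3 lower (0.145%) under FVIO-MHT, and the second called 1 of 591 (0.169%), which was lower. Called means an adjusted p under 0.05. Without adjustment 61 (2.95%) and 33 (5.58%) genes had a p under 0.05. DESeq2 called 2 genes in each fit (0.0968% and 0.338%). Arg1 was the gene called in both.

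Arg1, arginase 1, which hydrolyses arginine and is a classical product of suppressive tumour macrophages (chromosome 10, 24915221 to 24927484, reverse strand), was low in both FVIO-MHT libraries. It was at 74.7 and 72.9 CPM in FVIO-MHT replicates 2 and 3 (2 and 5 UMIs) and at 603, 1429 and 1011 CPM in PBS replicates 1 to 3 (11, 121 and 15 UMIs). The groups did not overlap; of the 591 genes of the larger fit, 9.81% lay lower in both FVIO-MHT libraries than in all PBS libraries. The means were 73.8 CPM ± 1.29 (SD, n = 2) and 1015 CPM ± 413 (SD, n = 3). The log2 fold change was -4.32 ± 1.01 (SE; edgeR adjusted p = 0.014) against PBS replicate 2 alone and -3.73 ± 0.70 (SE; edgeR adjusted p = 0.0257) against all 3. DESeq2 called it in the 5 libraries (adjusted p = 0.00677) but not in the 3. Leaving out PBS replicate 2 or PBS replicate 3 kept the size (-3.28 and -3.81) but ended the call, with edgeR adjusted p of 0.185 and 0.323.

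Few C1q-expressing barcodes of the heated tumours carried Arg1 or Mmp12. At least 1 UMI of Arg1 or Mmp12 was found in 4 of 32 (12.5%) and 6 of 119 (5.04%) of the barcodes in FVIO-MHT replicates 2 and 3. In PBS replicates 1 to 3 it was found in 10 of 16 (62.5%), 51 of 84 (60.7%) and 5 of 11 (45.5%). Thinned to 300 UMIs the shares were 6.45% and 5.05% against 25%, 43.8% and 36.4%, so the libraries stayed apart at equal depth. For Arg1 alone, keratin barcodes, which should lack it, gave a background within each library. In FVIO-MHT replicate 2 Arg1 was found in 1 of 32 C1q-expressing barcodes (3.12%) and 0 of 115 keratin barcodes (median 669.5 and 1828 UMIs). In FVIO-MHT replicate 3 it was found in 3 of 119 (2.52%) against 8 of 595 (1.34%, median 499 and 1072 UMIs). Thinned to 300 UMIs, Arg1 was found there in 3 of 99 (3.03%) against 3 of 560 (0.536%), few barcodes on either side. In PBS replicate 2 it was found in 40 of 84 (47.6%) against 24 of 620 (3.87%, median 821.5 and 1564.5 UMIs), and in PBS replicates 1 and 3 in 4 of 16 and 4 of 11 against 0 of 193 and 2 of 122. In PBS replicate 2, 28 of 84 C1q-expressing barcodes carried Mrc1 together with Arg1 or Mmp12, against 2 of 32 and 1 of 119 in FVIO-MHT replicates 2 and 3.

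Mmp12, the macrophage elastase (chromosome 9, 7344381 to 7369499), was also lower in both FVIO-MHT libraries. It was at 187 and 102 CPM in FVIO-MHT replicates 2 and 3 and at 1207, 1086 and 809 CPM in PBS replicates 1 to 3. The groups did not overlap. Its log2 fold change was -3.07 ± 0.94 (SE; edgeR adjusted p = 0.299) in the 3 libraries and -2.86 ± 0.64 (SE; edgeR adjusted p = 0.0791) in the 5, where DESeq2 called it (adjusted p = 0.0277). Outside the C1q-expressing barcodes the level of Arg1 also differed by library: barcodes under 200 genes held 248, 18.3 and 39.1 CPM in the FVIO-MHT libraries and 33.9, 569 and 376 CPM in the PBS libraries. In the other barcodes with 200 or more genes Arg1 was at 590, 14.9 and 23.8 CPM in the FVIO-MHT libraries. The PBS libraries held 24.4, 84.6 and 147 CPM there. FVIO-MHT replicate 1, with no C1q-expressing barcode, was thus the highest library in that class. Among barcodes under 200 genes it lay below PBS replicates 2 and 3 only. The difference of the treatment effect between C1q-expressing and all other barcodes with 200 or more genes was -2.32 ± 0.98 for Arg1 on the log2 scale in the 3 libraries and -1.70 ± 0.85 in the 5, with an edgeR adjusted p of 1 in both, so a fall particular to the C1q-expressing barcodes was not shown.

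**Figure D2:**
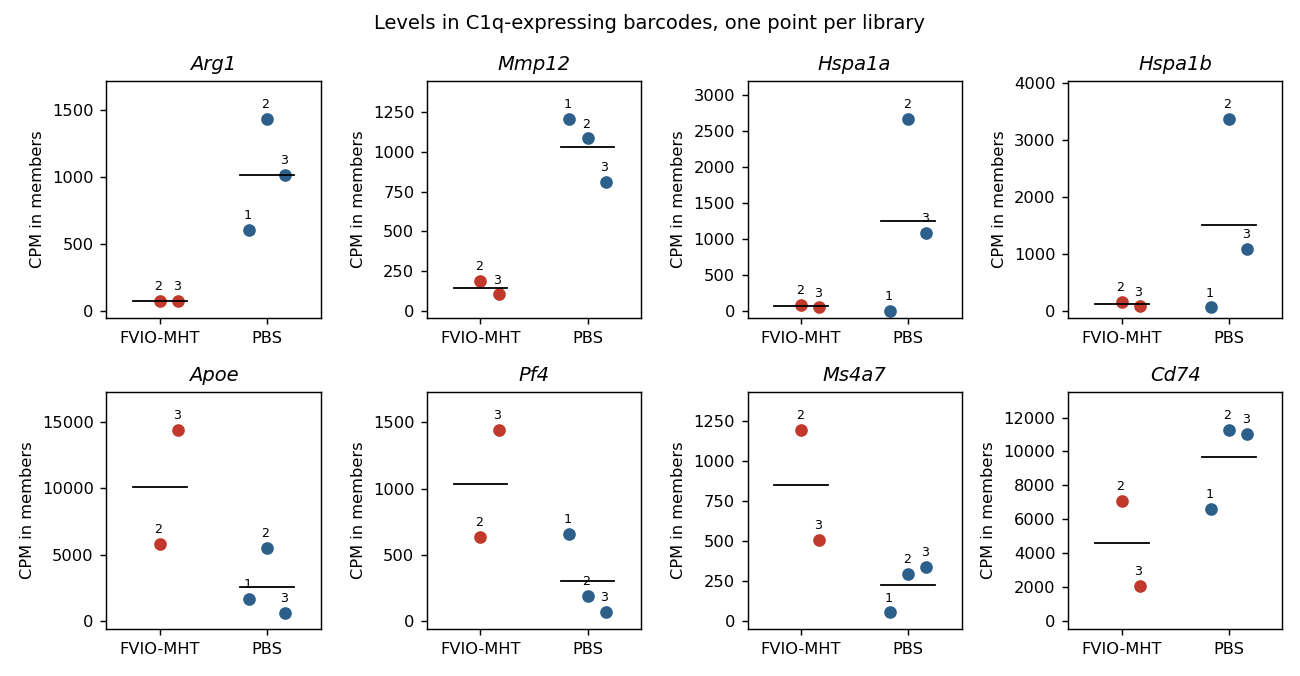
CPM in the C1q-expressing barcodes, 1 point per library, numbered by replicate, with black lines at the group means; FVIO-MHT replicate 1 has no such barcodes. Arg1 and Mmp12 do not overlap between groups, while Hspa1a and Hspa1b are high in PBS replicates 2 and 3 only and Cd74 is lowest in FVIO-MHT replicate 3.

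Hspa1a and Hspa1b, which encode the inducible HSP70 chaperone and lie on chromosome 17 (34969190 to 34972156 and 34956436 to 34959238, reverse strand), were low in the C1q-expressing barcodes of the heated tumours and high in 2 of the 3 PBS libraries. Their promoters are shown because the genes moved together and are close copies; each window is the 250 bases before the RefSeq start (GRCm38.p6, chr17:34972157-34972406 and chr17:34959239-34959488, reverse strand). Capitals mark the heat shock element, the binding motif of heat shock factors, searched as GAANNTTC, which reads the same on both strands.
Hspa1a: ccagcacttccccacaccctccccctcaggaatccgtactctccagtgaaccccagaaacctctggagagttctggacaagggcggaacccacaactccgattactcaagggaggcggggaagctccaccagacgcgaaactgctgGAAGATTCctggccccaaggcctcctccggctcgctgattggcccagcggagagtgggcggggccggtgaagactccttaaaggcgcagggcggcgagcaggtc
Hspa1b: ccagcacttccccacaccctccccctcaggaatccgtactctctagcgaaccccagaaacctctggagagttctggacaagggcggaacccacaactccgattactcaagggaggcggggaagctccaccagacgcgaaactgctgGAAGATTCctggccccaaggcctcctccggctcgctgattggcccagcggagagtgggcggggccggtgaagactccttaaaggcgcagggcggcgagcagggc
Each held 1 match, and 6.69% of 32851 windows hold one. The windows agreed at 247 of 250 bases (98.8%), with the differences C44T, T47C and T249G, counted from 1 at the 5′ end with the base of Hspa1a first. Reads could have been divided between the copies in a way the sources used here do not state, so their separate levels are uncertain.

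Hspa1a was at 74.7 and 43.7 CPM in FVIO-MHT replicates 2 and 3 and at 0, 2657 and 1079 CPM in PBS replicates 1 to 3. Hspa1b was at 149 and 72.9 CPM against 54.9, 3366 and 1079 CPM. PBS replicate 1 was as low as the FVIO-MHT libraries, so the groups overlapped for both. Against PBS replicate 2 alone the log2 fold changes were -5.63 ± 1.11 (SE) and -5.10 ± 1.07 (SE), with edgeR adjusted p of 0.000814 and 0.00185. With all 5 libraries they were -4.52 ± 1.17 and -3.93 ± 1.05, and neither was called (edgeR adjusted p = 0.210 for both). The call thus rested on which PBS libraries entered.

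The level of Hspa1b followed the library as a whole. In barcodes under 200 genes it was 93.3, 102 and 89.0 CPM in the FVIO-MHT libraries and 142, 2625 and 1875 CPM in the PBS libraries, and in the other barcodes with 200 or more genes it was 22.1, 239 and 141 against 209, 3249 and 3011 CPM. PBS replicates 2 and 3, the pair that shared 44 barcode sequences, were therefore high in every kind of barcode. The difference of effect between C1q-expressing and other barcodes was -1.03 ± 0.99 for Hspa1b in the 3 libraries and 0.15 ± 0.72 in the 5 (log2, edgeR adjusted p of 1 in both). How much of the difference in these barcodes came from RNA shared by the whole library was not tested.

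The tested heat shock genes all had negative log2 fold changes. Of 22 in the list, Hspa1a and Hspa1b included, 17 were tested against PBS replicate 2 and all 17 had negative log2 fold changes with a median of -1.55, where 46.9% of the 2066 genes were negative and the median was 0.05. In the 5 libraries 8 were tested and all 8 were negative with a median of -1.59, where 49.6% of 591 genes were negative and the median was 0.01. Without Hspa1a and Hspa1b the medians were -1.45 over 15 genes and -1.05 over 6. Only Hspa1a and Hspa1b were called, in the first fit. The HSP40 co-chaperone Dnaja1 was at 336 and 452 CPM against 329, 2161 and 1753 CPM, and Hsph1, the HSP110 exchange factor, at 37.4 and 146 CPM against 0, 732 and 405 CPM. In both, PBS replicate 1 again sat with the FVIO-MHT libraries. Hsp90ab1, the constitutive HSP90, did not overlap, with 2503 and 4301 CPM against 4827, 5680.1 and 5732 CPM, and its log2 fold change of -0.60 ± 0.47 (5 libraries, edgeR adjusted p = 0.926) did not pass the test.

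**Figure D3:**
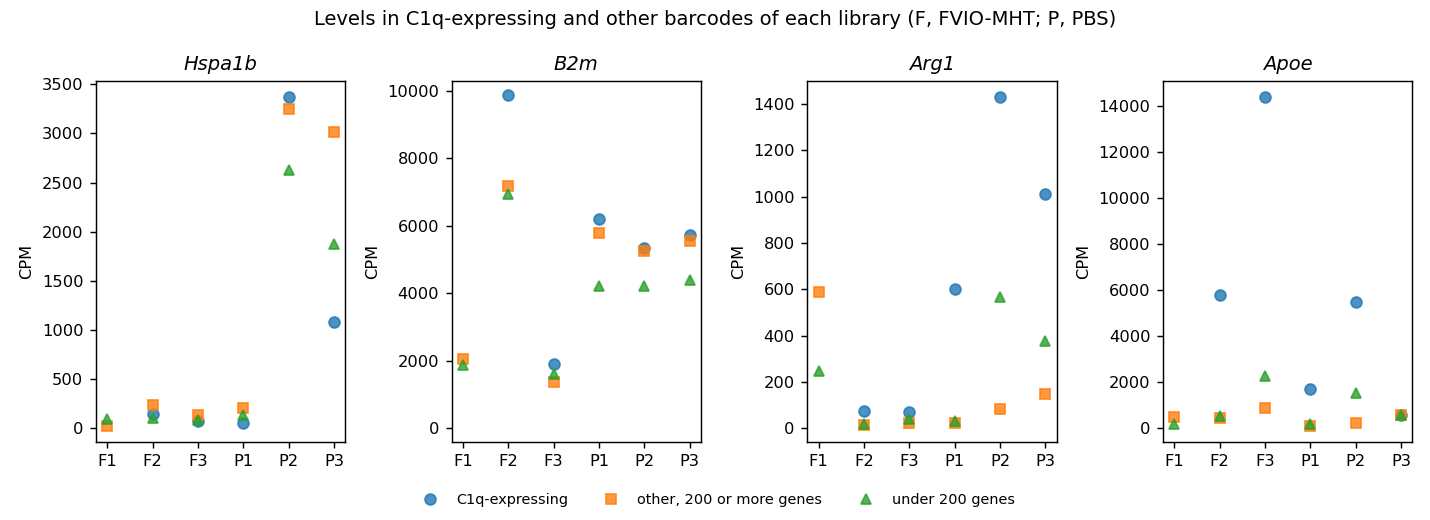
CPM of 4 genes in C1q-expressing barcodes (circles), in other barcodes with 200 or more genes (squares) and in barcodes under 200 genes (triangles) of each library (F, FVIO-MHT; P, PBS; number, replicate). Hspa1b and B2m move together in all 3 kinds of barcode, whereas Arg1 and Apoe in most libraries are highest in the C1q-expressing ones.

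S100a9 and Hist1h1c were the genes called higher, each against a single UMI in PBS replicate 2. S100a9, a calcium-binding alarmin of neutrophils (chromosome 3, 90692632 to 90695721, reverse strand), was at 859 and 146 CPM in FVIO-MHT replicates 2 and 3 and at 109.7, 11.8 and 0 CPM in PBS replicates 1 to 3. Its ratio to PBS replicate 2 was 29.3, with an exact 95% counting interval of 4.91 to 1192, and its fitted log2 fold change was 4.95 ± 1.25 (SE; edgeR adjusted p = 0.0423). It rested on 23 UMIs in FVIO-MHT replicate 2 and 10 in FVIO-MHT replicate 3. In barcodes under 200 genes S100a9 was at 47079.8, 16658 and 1073 CPM in the FVIO-MHT libraries and at 7973, 1549.7 and 4796 CPM in the PBS libraries. Other barcodes with 200 or more genes held it at 50979, 7030 and 161 CPM against 1368, 167 and 287 CPM. The part of these levels in the S100a9 result was not tested.

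Hist1h1c, a linker histone (chromosome 13, 23738808 to 23740367), was at 149 and 598 CPM under FVIO-MHT and at 54.9, 11.8 and 135 CPM under PBS. Its ratio to PBS replicate 2 was 40.0 (exact 95% counting interval 6.82 to 1613) and its log2 fold change 4.80 ± 1.24 (SE; edgeR adjusted p = 0.0481). In the larger fit neither gene passed the filter on low counts. DESeq2 called neither. Other barcodes with 200 or more genes held Hist1h1c at 762, 69.8 and 172 CPM in the FVIO-MHT libraries. The PBS libraries held 32.5, 35.0 and 37.3 CPM there. Barcodes under 200 genes held 383, 89.6 and 350 CPM in the FVIO-MHT libraries and 89.8, 45.3 and 72.3 CPM in the PBS libraries. The part of these levels in the Hist1h1c result was not tested.

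Macrophage identity genes went in both directions and none passed the test. Of 11 tested in the 5 libraries, 7 had positive and 4 negative log2 fold changes with a median of 0.38, and 3 were higher and 2 lower in both FVIO-MHT libraries than in every PBS library. Cd14, the lipopolysaccharide co-receptor, was lower, at 709.7 and 233 CPM against 987, 2067 and 944 CPM (log2 fold change -1.57 ± 0.64, edgeR adjusted p = 0.679), and was called without FVIO-MHT replicate 2 (-2.53, edgeR adjusted p = 0.0195). Apoe was at 5790.1 and 14389 CPM in FVIO-MHT replicates 2 and 3 and at 1700.4, 5491 and 607 CPM in PBS replicates 1 to 3. The groups did not overlap, though FVIO-MHT replicate 2 and PBS replicate 2 were close. Of the 591 genes, 10.3% lay higher in both FVIO-MHT libraries. Barcodes under 200 genes held Apoe at 177, 526 and 2296 CPM in the FVIO-MHT libraries and at 201, 1533 and 598 CPM in the PBS libraries. Other barcodes with 200 or more genes held it at 502, 461 and 889 against 103, 231 and 579 CPM. FVIO-MHT replicate 3 was thus the highest library in each kind of barcode, and the part of this in the result was not tested. The log2 fold change of Apoe was 1.90 ± 0.66 (5 libraries, edgeR adjusted p = 0.512), and PBS replicate 2 and FVIO-MHT replicate 2 each decided the call. Without the former it was 3.18 (edgeR adjusted p = 0.0242) and without the latter 2.40 (edgeR adjusted p = 3.15e-05). It did not pass without FVIO-MHT replicate 3 (1.04), PBS replicate 1 (1.68) or PBS replicate 3 (1.44), with edgeR adjusted p of 0.362 to 1. Ms4a7, a membrane protein of tissue macrophages, was at 1195 and 510.2 CPM against 54.9, 295 and 337 CPM (log2 fold change 1.82 ± 0.61, edgeR adjusted p = 0.512), and passed without FVIO-MHT replicate 3 (2.27, edgeR adjusted p = 0.0291) but not without FVIO-MHT replicate 2 (1.08). Pf4, the platelet factor 4 chemokine that tissue macrophages also make, was at 635 and 1443 CPM against 658, 189 and 67.4 CPM, and PBS replicate 1 overlapped with the FVIO-MHT libraries. It passed without FVIO-MHT replicate 2 (2.40, edgeR adjusted p = 0.00530) but not without FVIO-MHT replicate 3 (1.16). Maf, a transcription factor of resident macrophages, was at 523 and 904 CPM against 329, 307 and 202 CPM without passing (log2 fold change 1.37 ± 0.52, edgeR adjusted p = 0.611).

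Lysosomal genes split. Of 13 tested in the 5 libraries, 6 had positive and 7 negative log2 fold changes with a median of -0.05, and none was called. Lgmn was at 3474 and 2595 CPM under FVIO-MHT against 1426, 1771 and 1214 CPM under PBS, without overlap. Ctsb, cathepsin B, was at 3623 and 2755 against 1371, 2149 and 2158 CPM, also without overlap. Ctss overlapped, at 3213 and 2128 against 2523, 4676 and 3844 CPM. In all, 6 of the 13 were higher and 1 lower in both FVIO-MHT libraries than in every PBS library, where 10.3% of all 591 genes were higher and 9.81% lower in this way.

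MHC class II, which presents antigen to CD4 T cells, divided the C1q-expressing barcodes by library more than by group. The sum of the 10 listed genes was 18155 and 4942 CPM in FVIO-MHT replicates 2 and 3 and 17607, 24385 and 25152 CPM in PBS replicates 1 to 3. FVIO-MHT replicate 2 thus lay within the PBS range, and replicate 3 far under it. Cd74 was at 7097 and 2070.1 CPM against 6637, 11266 and 11059 CPM, and H2-Aa, the class II alpha chain, at 2988 and 583 CPM against 2852, 3684 and 3844 CPM. All 6 tested class II genes had negative log2 fold changes in both fits, with medians of -1.11 and -0.84, and none was called. Without FVIO-MHT replicate 3 the median was -0.17, and without FVIO-MHT replicate 2 it was -2.01.

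The same division showed in single barcodes. In FVIO-MHT replicate 3, 72 of 119 C1q-expressing barcodes (60.5%) held no UMI of the class II genes Cd74, H2-Aa, H2-Ab1 and H2-Eb1, while 2 of 32 did in FVIO-MHT replicate 2, 1 of 16, 1 of 84 and 0 of 11 in PBS replicates 1 to 3. At 300 UMIs per barcode, at least 1 such UMI was seen in 32.3% of the barcodes of FVIO-MHT replicate 3 and in 83.9% to 100% of those of the other libraries. Keratin barcodes gave a background for H2-Aa, with a UMI in 1.34% in FVIO-MHT replicate 3 (median 1072 UMIs) against 16.0% of its C1q-expressing barcodes (median 499 UMIs). In PBS replicate 2 the same shares were 53.5% and 85.7% (median 1564.5 and 821.5 UMIs).

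Low MHC expression in FVIO-MHT replicate 3 was not limited to class II or to macrophages. B2m, the light chain of MHC class I, was at 9862 and 1895 CPM in FVIO-MHT replicates 2 and 3 and at 6198, 5349 and 5732 CPM in PBS replicates 1 to 3. In barcodes under 200 genes it was at 4221, 4229 and 4381 CPM in the PBS libraries, and in the FVIO-MHT libraries it was at 1863, 6936 and 1618 CPM. FVIO-MHT replicates 1 and 3 were thus low in B2m across the library and FVIO-MHT replicate 2 was high. Cxcl9, the interferon gamma-induced chemokine that draws T cells, was at 1121 CPM in FVIO-MHT replicate 2, at 0 of 68596 UMIs in replicate 3 (a count that allows up to 43.7 CPM) and at 219, 567 and 1483 CPM in PBS replicates 1 to 3. Leaving out FVIO-MHT replicate 2 from the 5 libraries raised the genes tested from 591 to 1414 and the calls from 1 to 33 (from 0.169% to 2.33%), 24 of them lower, among them Cxcl9, H2-Aa, H2-Ab1, Cd74, H2-D1 and H2-K1, with FVIO-MHT replicate 3 alone then assumed to vary like the PBS libraries.

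**Figure D4:**
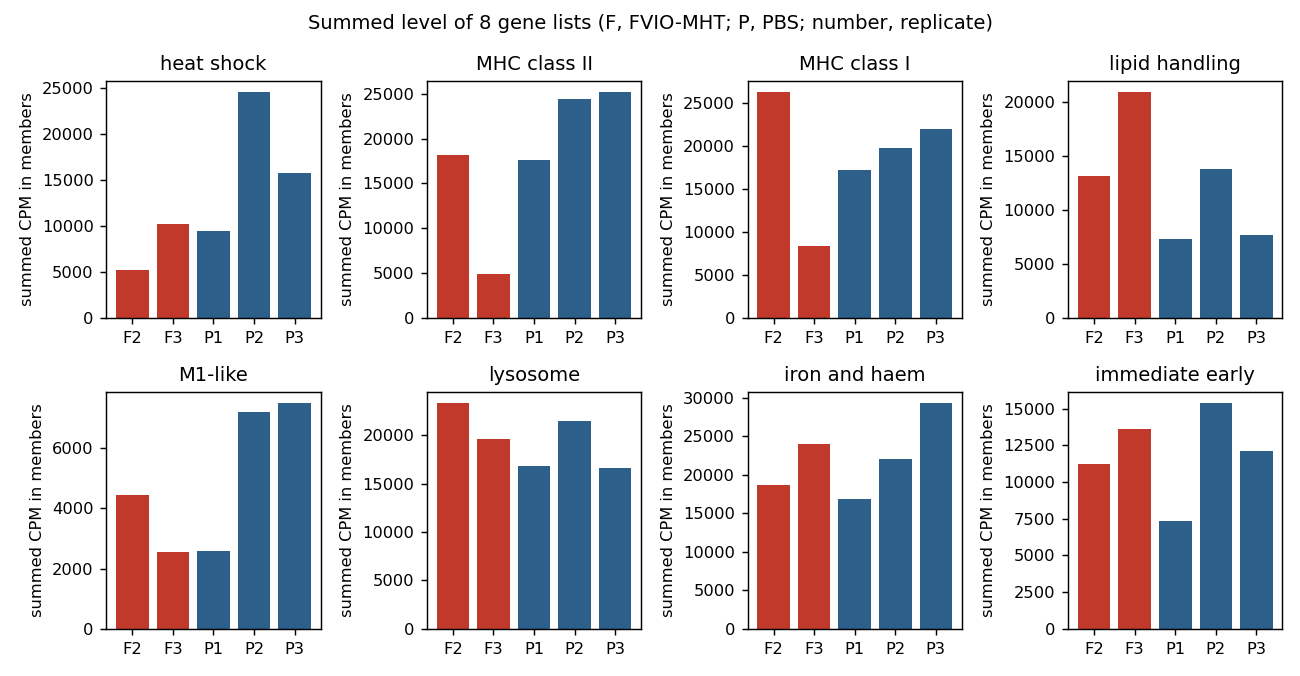
Summed CPM of 8 gene lists in the C1q-expressing barcodes of each library (F, FVIO-MHT, red; P, PBS, blue; number, replicate). Heat shock genes are highest in PBS replicates 2 and 3, and MHC class I and II are lowest in FVIO-MHT replicate 3.

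Genes of macrophage polarisation other than Arg1 did not separate the groups. Mrc1 was at 635 and 860.1 CPM under FVIO-MHT and at 987, 850.2 and 1214 CPM under PBS, and Msr1, a scavenger receptor, at 1195 and 787 against 1042, 1016 and 1079 CPM. Il1b, the inflammatory cytokine, was at 1009 and 1779 against 987, 3377 and 4181 CPM. Nos2, inducible nitric oxide synthase, rested on 20 UMIs in all and was at 224 and 0 against 0, 154 and 67.4 CPM. The groups overlapped for all 4. Of 4 M1-like genes tested in the 5 libraries all had negative log2 fold changes (median -0.99), and of 6 M2-like and resident genes 2 were positive and 4 negative (median -0.18), of which Arg1 alone was called. Ccl8, a chemokine of resident macrophages, ranged from 54.9 to 1793 CPM over the 5 libraries without order by group.

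Complement, clearance and iron genes gave no call. The C1q chains themselves were chosen by the rule and are described only: C1qa was at 2839 and 5642 CPM in FVIO-MHT replicates 2 and 3 and at 1919.8, 2881 and 1551 CPM in PBS replicates 1 to 3, with overlap. C1qb, at 2988 and 1341 against 1152, 1311 and 1146 CPM, and C1qc, at 2727 and 3047 against 2633, 1689 and 1483 CPM, were higher in both FVIO-MHT libraries. The median depth of the barcodes, against which 3 UMIs is a fixed bar, was 669.5 and 499 against 1007, 821.5 and 1258 UMIs. C3ar1, the receptor for complement C3a, was at 560.3 and 160.4 against 219, 94.5 and 0 CPM. The clearance receptor Mertk was at 37.4 and 335 against 109.7, 59.0 and 135 CPM. Trem2, a lipid receptor, was at 112 and 204 against 0, 142 and 269.7 CPM. C3ar1, Mertk and Trem2 overlapped between groups.

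The nanorings carry iron, and the iron genes of the C1q-expressing barcodes are given for that reason. Fth1, the ferritin heavy chain, was at 13709 and 17071 CPM under FVIO-MHT and at 13768, 16579.7 and 21510.5 CPM under PBS. Ftl1, the light chain, was at 1644 and 4359 against 1097, 3247 and 5462 CPM. Both overlapped, with log2 fold changes in the 5 libraries of -0.09 ± 0.43 and -0.03 ± 0.58 (edgeR adjusted p = 0.987 for both). Hmox1, which degrades haem, did not overlap, at 411 and 539 against 274, 189 and 269.7 CPM, and did not pass the test (log2 fold change 1.11 ± 0.59, edgeR adjusted p = 0.847). Slc40a1, the iron exporter ferroportin, had no UMI in any C1q-expressing barcode, which at 3 counts allows up to 35.4 CPM in PBS replicate 2 and 202 CPM in PBS replicate 3. Of 6 iron and haem genes tested in the 5 libraries, 3 were positive and 3 negative.

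The remaining lists had no called member in either fit, with the exception of the matrix list, where DESeq2 called Mmp12 in the 5 libraries. In the 5 libraries the median log2 fold change was 0.01 for 5 type I interferon response genes, 0.42 for 8 chemokines and receptors, 0.09 for 5 cell cycle genes, 0.34 for 7 unfolded protein response genes, 0.06 for 13 immediate early genes and 0.24 for 5 antioxidant genes. All 7 glycolysis and hypoxia genes were negative, with a median of -0.30. Isg15, the ubiquitin-like interferon product, was at 598 and 335 CPM under FVIO-MHT and at 165, 508 and 539 CPM under PBS. Top2a, the topoisomerase of dividing cells, was detected in 18.7% of C1q-expressing barcodes and in 34.0% of keratin barcodes. The keratin barcodes were deeper (median 1368 against 644.5 UMIs). Thinned to 300 UMIs, the shares were 11.8% of C1q-expressing and 14.5% of keratin barcodes, so the gap was much smaller at equal depth. In the C1q-expressing barcodes Top2a was at 448 and 554 CPM under FVIO-MHT against 1097, 354 and 269.7 CPM under PBS. The checkpoint ligand Cd274 was at 635 and 14.6 against 54.9, 224 and 135 CPM.

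Across all genes, a treatment difference larger or smaller in C1q-expressing than in other barcodes was called for 1 of 9107 genes (0.0110%) in the 3 libraries and for 0 of 7084 in the 5, where 205 had an unadjusted p under 0.05 in edgeR. That gene was Clec4e, the receptor Mincle, which senses dead cells and mycobacterial lipids. It was at 336 and 102 CPM in the C1q-expressing barcodes of FVIO-MHT replicates 2 and 3 and at 425 CPM in those of PBS replicate 2. In the other barcodes it was at 796, 53.6 and 19.7 CPM. The difference of log2 fold changes was -4.92 ± 0.95 (SE; edgeR adjusted p = 0.00208) in the 3 libraries and -2.81 ± 0.82 (edgeR adjusted p = 0.870) in the 5.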

How the data were processed

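Data from 6 Drop-seq libraries of 4T1 tumours were used, 3 per group. The deposited values are UMI counts per gene and barcode; reads were aligned with STAR 2.7.2b to mm10 per the submitters' processing notes, and the counting tool, annotation, strand and barcode choice were not given in the sources used here. Every library lists 5000 barcodes and totals 678337 to 2207534 UMIs. Of 27998 rows, 65 repeated a symbol with identical values and were dropped, leaving 27933 genes.

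Counts of C1q-expressing barcodes were summed per library and tested with edgeR 4.0.16 (quasi-likelihood, TMM scaling, filterByExpr, Benjamini-Hochberg adjustment; limma 3.58.1, R 4.3.3), with DESeq2 1.42.0 as an alternative. CPM is UMIs scaled to a total of 1000000 over the summed barcodes. Shares used exact permutation tests (scipy 1.17.1) and exact Clopper-Pearson 95% intervals; intervals and floors of 3 counts cover counting error only. Arg1 and Mmp12 barcodes held 2 or more UMIs of those genes; Ly6c2 barcodes 1 or more; all comparison classes at most 1 of C1q. Sequences are from RefSeq windows on GRCm38.p6, where C1qb, C1qc, Hspa1a and Hspa1b matched and C1qa had no entry. Coordinates are from GENCODE vM21.

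Members and gene lists were chosen with earlier results of these data known. The rule for genes to name took the 5 markers, the 8 with the lowest p in each direction, the 3 most abundant and the lowest-p gene of each list, a fixed set of 27 and the 10 that lead the class description. The report gives those of them that the results turn on; others were named after their values were seen. The rule of correlating genes with C1q over 6 libraries was not applied, since 5 libraries hold such barcodes. Simulated counts were drawn with a dispersion, the spread between libraries, set to 0.2 for every gene. That value was not estimated from these data, so the recovery below does not give the power of the tests here. On simulated counts, the 3-library fit recovered 6 of 85 genes changed by 2 on the log2 scale and 75 of 108 changed by 4, and the 5-library fit 58 of 92 and 102 of 102, with 1 and 6 false calls. Deviations of same-numbered libraries from their group means had correlations of 0.079 and 0.059. With 2 FVIO-MHT libraries these deviations mirror each other, so the check cannot tell whether the numbers pair the libraries.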

Additional observations from a re-analysis of the deposited data

Results flagged for a closer look

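The treatment difference of Clec4e in C1q-expressing barcodes against other barcodes was -4.92 on the log2 scale, and a test of that difference over 9107 genes called it alone. In the C1q-expressing barcodes it rested on 36 UMIs in PBS replicate 2, 9 in FVIO-MHT replicate 2 and 7 in FVIO-MHT replicate 3. With barcodes under 200 genes as the comparison it was -2.87 (edgeR adjusted p of 1), and in the 5 libraries, where PBS replicates 1 and 3 added 5 and 1 UMIs, it was -2.81. Clec4e was at 3255 CPM in neutrophil barcodes, whose number was 348 and 10 in FVIO-MHT replicates 2 and 3 and 6 in PBS replicate 2; without them 1 gene was called.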

How the results depend on the processing

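The difference in share of C1q-expressing barcodes turned sign in 4 of 16 alternatives: 0.876 points at 300 UMIs per barcode, 0.0168 points with neutrophil barcodes out of the denominator (added after seeing the data), and 0.915 without FVIO-MHT replicate 1 or 0.841 without PBS replicate 2, within a range of -1.64 to 0.915 points when each library was left out. Of the 5 genes called in the 3 libraries, the count was 0 with a C1q sum of at least 2 and with no keratin UMI, 2 with DESeq2, without a filter and after thinning to the lowest summed count, and 3 with S100a8 and S100a9 at most 1. The 5-library count was 1 at main settings, at minimums of 100 and 400 genes, with a C1q sum of at least 2, no keratin UMI, S100a8 and S100a9 or haemoglobin at most 1, RLE factors or library totals; it was 0 with a C1q sum of at least 5, 2 with DESeq2 and 3 without a filter. Leaving out a library gave 33 (FVIO-MHT replicate 2), 11 (FVIO-MHT replicate 3), 3 (PBS replicate 1), 1 (PBS replicate 2) and 0 (PBS replicate 3). With the replicate number as a block it was 3 (Arg1, Hspa1a and Hspa1b). Whether the numbers pair the libraries is not known. The 1 gene whose treatment difference set the barcodes apart became 4 with RLE factors and 0 against barcodes under 200 genes. In the 5 libraries the count was 0, also against barcodes under 200 genes and without neutrophil barcodes, 2 with RLE factors and 0 to 8 leaving out each library, with 3 without FVIO-MHT replicate 2 and 8 without FVIO-MHT replicate 3. The cause of these changes was not tested. None of the 19 genes followed turned sign in the 10 to 28 alternatives in which each was tested. Many of the 19 were picked by their values in these data and the alternatives share libraries, so this is a description only. Hspa1a and Hspa1b were not tested in the 5-library fits that left out PBS replicate 2 or PBS replicate 3. Hsp90aa1 was at -0.003 without PBS replicate 2. Leaving out libraries of the 3-library fit, minimums of 400 genes or 5 C1q UMIs there (19 barcodes in FVIO-MHT replicate 2) and a block on 2 against 1 libraries could not be fitted. Depth limits single genes: 1 UMI was worth up to 67.4 CPM.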
